A study of Rattus norvegicus with 9 samples.

Results

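Matricellular proteins are secreted proteins that bind matrix, growth factors and cell surface receptors and change how cells respond to the matrix without building it. The genes described here are the 5 CCN genes Ccn1, Ccn2, Ccn3, Ccn4 and Ccn5 and the matricellular genes Spp1, Postn, Tnc, Thbs1 and Sparc, 10 in all. Of these, 9 had an array feature naming a single gene, out of 14506 genes tested, and each of the 9 had 1 such feature. Tnc, which encodes the hexameric matrix protein tenascin C, had none and was not analysed here.

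The arrays hold cultured cells of adult Sprague Dawley rats in 3 groups of 3 independent samples. SKP-derived Schwann cells were grown in Schwann cell medium from SKPs, the skin-derived precursors of dorsal trunk skin. Nerve Schwann cells came from the sciatic nerve and were grown in the same kind of medium, and both were passaged and collected at confluence. SKPs were sphere cultures of dorsal trunk skin collected after passaging. The labels give no added treatment or transgene and name dermis as the tissue of all 9 arrays, so groups follow the cell type. The values are log2 levels made by RMA, a method that corrects background, scales arrays and combines the probes of a feature. Levels of different genes are not comparable on this scale, so each gene was compared only with itself across arrays.

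CCN proteins are modular and bind integrins, heparan sulfate proteoglycans and growth factors. Ccn1 and Ccn2 are textbook targets of the YAP and TAZ co-activators, which act through TEAD factors on DNA, and of TGF-beta. Spp1, Postn, Thbs1 and Sparc act in wound repair, bone and skin, and Schwann cells are known sources of several matricellular proteins in injured nerve.

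The labelled cell types matched their defining markers, and SKP arrays 1 and 3 each stood apart from their group in a marker list. Sox10, which specifies the Schwann cell lineage, ranged over 9.96 to 11.17 in SKP-derived and 11.30 to 11.64 in nerve Schwann cells, against 6.58 to 6.84 in SKPs. Of 12 listed Schwann cell genes 10 were measured, and their summed log2 level was 99.3 to 109.4, 110.8 to 111.9 and 55.1 to 60.1 in SKP-derived Schwann cells, nerve Schwann cells and SKPs. SKP array 1 stood apart in macrophage and immune markers (13 of 13 measured, mean log2 level 8.05, against 6.32 and 5.39 in SKP arrays 2 and 3). SKP array 3 stood apart in dermal mesenchyme genes (12 of 12 measured, mean 10.43, against 12.07 and 11.98). SKP-derived array 2 had the highest mesenchyme mean of its group (9.99, against 7.97 and 8.93 in arrays 1 and 3). Per the labels, the SKP arrays reanalyse samples deposited before, so a batch and the SKP group cannot be told apart. Sphere culture and confluent culture differ between the same groups.

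The bases before the start of 3 of the genes are given. Ccn1 and Ccn2 are textbook TEAD targets of which only Ccn2 passed the test here. Spp1 had the largest fall in SKP-derived Schwann cells against SKPs. Of the 9 measured genes 6 matched a RefSeq promoter (GRCr8). The 250 bases before the start are shown 5′ to 3′ on the strand of the gene, with matches to the TEAD core GGAATG or its reverse complement CATTCC in capitals. The Ccn2 window lies at chr1:22624615-22624864 on the minus strand, Ccn1 at chr2:237225690-237225939 on the minus strand and Spp1 at chr14:5619805-5620054 on the minus strand. The windows of Spp1 and Postn lie inside the annotated spans of these genes (chr14:5613569-5620695 and chr2:140677774-140709304). Bases before the outer start of these spans were not searched.
Ccn2: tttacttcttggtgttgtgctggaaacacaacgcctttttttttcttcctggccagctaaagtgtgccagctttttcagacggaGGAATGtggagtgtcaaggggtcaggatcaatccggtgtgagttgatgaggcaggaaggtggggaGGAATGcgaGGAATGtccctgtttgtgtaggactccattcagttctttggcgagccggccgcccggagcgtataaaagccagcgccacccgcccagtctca
Ccn1: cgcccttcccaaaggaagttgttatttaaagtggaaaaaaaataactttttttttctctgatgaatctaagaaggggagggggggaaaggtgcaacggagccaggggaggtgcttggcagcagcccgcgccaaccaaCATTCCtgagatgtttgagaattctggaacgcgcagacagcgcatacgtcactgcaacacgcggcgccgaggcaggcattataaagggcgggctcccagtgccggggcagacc
Spp1: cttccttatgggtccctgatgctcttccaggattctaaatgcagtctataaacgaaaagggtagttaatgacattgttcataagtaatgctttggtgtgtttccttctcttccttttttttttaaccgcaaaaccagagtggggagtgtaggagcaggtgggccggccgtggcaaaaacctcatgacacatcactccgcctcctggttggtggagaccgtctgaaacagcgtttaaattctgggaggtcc
Ccn2 held 3 matches, which began 166, 101 and 92 bases before the start, and Ccn1 held 1 at 113 bases. Thbs1 and Sparc held 1 each, at 47 and 33 bases, and none was found in the windows of Spp1 and Postn. At least 1 match was present in 12.1% of 33469 rat promoter windows of this length, and 3 or more in 0.0807%. The TATA box letters TATAAA, searched on both strands, were found in Ccn1, Ccn2, Spp1 and Postn and in 12.9% of windows. These matches began 34, 31, 204 and 44 bases before the start, in that order of genes. The AP-1 letters TGANTCA, which read the same on both strands, were in none of the 6 windows and in 6.34% of all. Matches of different motifs did not overlap, and a match is a description of the sequence.

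Both kinds of Schwann cell were compared with SKPs to see how far the matricellular genes of each lay from the skin precursor, and the Schwann cell groups were compared with each other to see what differs by origin. Spp1, Ccn3, Ccn2 and Postn were lower in both kinds of Schwann cell than in SKPs. Ccn5 was higher in nerve Schwann cells than in either other group as deposited. Ccn1, Ccn4, Thbs1 and Sparc passed the test in no comparison. The plot of levels by array shows all 9 genes.

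**Figure D1:**
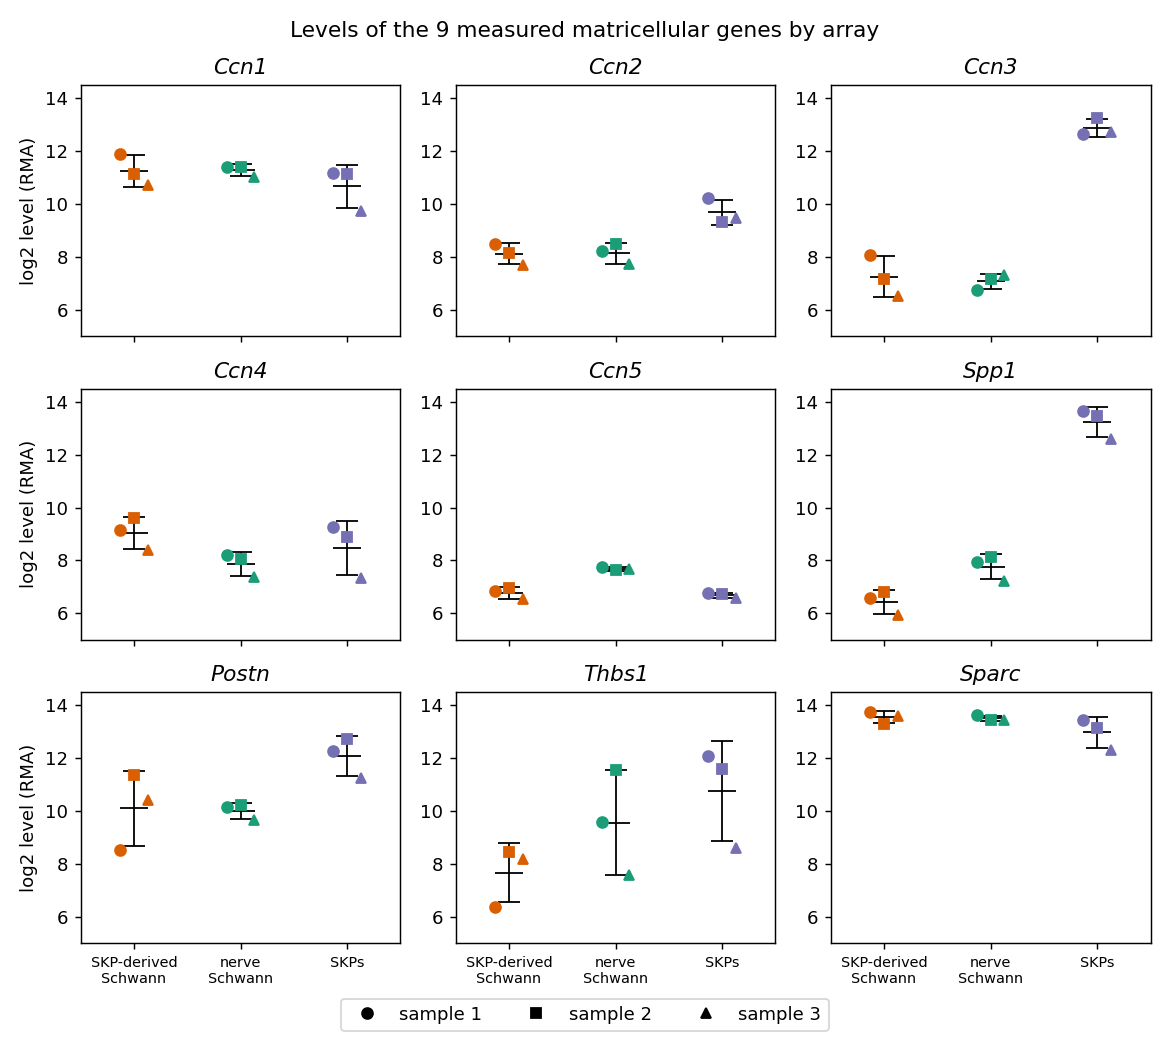
Log2 level of each measured gene (vertical axis, the same scale in all panels) in SKP-derived Schwann cells, nerve Schwann cells and SKPs, with a point per array, the symbol giving the sample number, and the mean with SD (n = 3). Spp1 and Ccn3 lie at 8.14 or below in all Schwann cell arrays and at 12.60 or above in all SKP arrays, while Thbs1 spreads widely within each group.

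Of the 9 genes, 4 were lower and 0 higher in SKP-derived Schwann cells than in SKPs by limma (adjusted p under 0.05 over all genes), against 22.3% of all genes lower and 19.3% higher, or 41.6% in either direction. At an unadjusted p under 0.05, limma gave 5 lower and 0 higher. All arrays of SKP-derived Schwann cells lay on one side of all SKP arrays for 4 of the 9 genes, against 47.9% of all genes. Their median log2 difference was -1.56, beside -0.01 over all genes. In nerve Schwann cells against SKPs, 4 were lower and 1 higher, against 14.9% and 49.7% of all genes, or 64.6% in either direction. The median difference of the 9 genes was -1.20, beside 0.46 over all genes, and 5 of the 9 did not overlap between these groups, against 73.5% of all genes. After cyclic loess, a rescaling that brings the arrays to a shared scale, the counts were 4 lower and 0 higher in SKP-derived and 4 lower and 1 higher in nerve Schwann cells. The background after loess was 23.9% lower and 18.6% higher for SKP-derived, and 25.6% lower and 22.4% higher for nerve Schwann cells. These comparisons share the 3 SKP arrays, so they are not independent of each other.

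Spp1 encodes osteopontin, a phosphoprotein with an RGD motif that binds integrins and CD44 and is made by bone cells, macrophages and Schwann cells of injured nerve. Its log2 level was 6.60, 6.80 and 5.94 in SKP-derived Schwann cells, 7.94, 8.14 and 7.23 in nerve Schwann cells, and 13.65, 13.45 and 12.60 in SKPs. All 3 SKP arrays were high, and no group overlapped another. In SKP-derived Schwann cells Spp1 fell by 6.79 against SKPs (6.44 ± 0.45 against 13.23 ± 0.56, SD, n = 3 each; SE 0.34, limma adjusted p = 2.26e-06), a 111-fold difference. It had the lowest difference of all 14506 genes in that comparison. In nerve Schwann cells it fell by 5.46 (7.77 ± 0.48 against 13.23 ± 0.56; limma adjusted p = 5.68e-06), rank 5 from the lowest. In whole cultures, fewer cells of a type and less RNA per cell cannot be told apart.

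Macrophages express Spp1, and the macrophage list was uneven among the SKP arrays. Its summed log2 level over 13 genes was 65.8 to 69.7 in SKP-derived, 76.3 to 77.4 in nerve Schwann cells and 70.0 to 104.6 in SKPs. Ptprc, the pan-leukocyte surface phosphatase CD45, ranged over 3.93 to 4.25 in SKP-derived and 4.79 to 4.84 in nerve Schwann cells, and was at 7.66, 4.64 and 4.13 in SKP arrays 1 to 3. Lyz2, a lysozyme of macrophages, ranged over 4.46 to 4.74 and 5.93 to 6.31 in these Schwann cell groups and was at 10.84, 7.03 and 5.13 in the SKP arrays. Cd14, a receptor for bacterial lipopolysaccharide on macrophages, was at 5.34, 6.22 and 4.94 in SKP-derived Schwann cells, 6.42, 6.44 and 6.41 in nerve Schwann cells, and 10.77, 10.25 and 9.18 in SKPs. All 3 SKP arrays lay above all Schwann cell arrays in Cd14. Its difference from SKPs was -4.57 in SKP-derived and -3.64 in nerve Schwann cells (limma adjusted p = 3.53e-05 and 9.31e-05). SKP array 3 lay below all Schwann cell arrays in the listed genes Cd68 (6.47), Itgam (4.05) and Cd74 (4.81). Of the 13 genes, 3 were lower and 0 higher in SKP-derived Schwann cells than in SKPs, against 22.3% and 19.3% of all genes. In nerve Schwann cells 1 was lower, Cd14, and 1 was higher, Cd163, against 14.9% and 49.7% of all genes. Without SKP array 1, the Spp1 difference was -6.58 in SKP-derived and -5.25 in nerve Schwann cells, at limma adjusted p = 2.12e-05 and 4.70e-05. The part of macrophages in the Spp1 level was not tested.

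Between the Schwann cell groups, Spp1 differed by -1.33 (SKP-derived minus nerve) as deposited (SE 0.34, limma adjusted p = 0.0141), with no overlap between the groups. This call ended after cyclic loess (-1.09, limma adjusted p = 0.172) and after median centring (-0.86, limma adjusted p = 0.137). It also ended without nerve array 1 (-1.24, limma adjusted p = 0.0506) or nerve array 2 (-1.14, limma adjusted p = 0.0559).

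Ccn3, first described as Nov, is a CCN protein that binds integrins and Notch1. It was at 8.07, 7.18 and 6.51 in SKP-derived Schwann cells, 6.75, 7.17 and 7.31 in nerve Schwann cells, and 12.66, 13.26 and 12.72 in SKPs. Every SKP array was far above every Schwann cell array, and the Schwann cell groups overlapped. Against SKPs, Ccn3 fell by 5.63 in SKP-derived (SE 0.35, limma adjusted p = 6.23e-06) and fell by 5.80 in nerve Schwann cells (limma adjusted p = 5.12e-06). It stood at rank 5 from the lowest difference in SKP-derived and rank 3 in nerve Schwann cells. The Schwann cell groups differed from each other by 0.17 (SE 0.35), which did not pass the test (limma adjusted p = 0.703).

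Ccn2, the connective tissue growth factor, promotes matrix production in fibroblasts. Its level was 8.49, 8.15 and 7.71 in SKP-derived Schwann cells, 8.22, 8.49 and 7.71 in nerve Schwann cells, and 10.23, 9.33 and 9.49 in SKPs. Both Schwann cell groups lay below all SKP arrays. It fell by 1.56 in SKP-derived (SE 0.30, limma adjusted p = 0.00251) and fell by 1.54 in nerve Schwann cells (SE 0.30, limma adjusted p = 0.00157). Leaving out any single array kept both calls, with differences of -1.75 to -1.29 and -1.71 to -1.27.

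Ccn1, which like Ccn2 has a TEAD core in the sequence above, promotes adhesion and senescence of fibroblasts. It was at 11.89, 11.13 and 10.73 in SKP-derived Schwann cells, 11.41, 11.39 and 11.01 in nerve Schwann cells, and 11.16, 11.12 and 9.73 in SKPs. The groups overlapped, and SKP array 3 was the lowest of all. The differences from SKPs were 0.58 for SKP-derived (SE 0.40, limma adjusted p = 0.276) and 0.60 for nerve Schwann cells (SE 0.40, limma adjusted p = 0.216).

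Ccn4, a Wnt-induced CCN protein of mesenchymal cells, was at 9.17, 9.59 and 8.39 in SKP-derived Schwann cells, 8.20, 8.06 and 7.36 in nerve Schwann cells, and 9.25, 8.87 and 7.33 in SKPs. SKP-derived arrays were all above nerve arrays, and the SKPs ran from just below the nerve arrays to within the range of the SKP-derived arrays. SKP-derived minus nerve cells gave 1.17 (SE 0.49), higher than the difference of 99.3% of genes in a comparison where the median gene was at -0.45, but it was not called (limma adjusted p = 0.0775). It was called with SKP array 3 left out of the fit (limma adjusted p = 0.017), in a fit of these groups alone (limma adjusted p = 0.0261) and with the sample number as a block (1.17, limma adjusted p = 0.0118), but not after cyclic loess (1.48, limma adjusted p = 0.178). Against SKPs, nerve Schwann cells differed by -0.61 (limma adjusted p = 0.297), and by -1.19 without SKP array 3 (limma adjusted p = 0.018).

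Ccn5 lacks the C-terminal module of the other CCN proteins. Its level was 6.83, 6.97 and 6.52 in SKP-derived Schwann cells, 7.75, 7.63 and 7.66 in nerve Schwann cells, and 6.76, 6.72 and 6.57 in SKPs. Nerve arrays lay above the other 6, which overlapped. Nerve Schwann cells minus SKPs gave 1.00 as deposited (SE 0.14, limma adjusted p = 0.000348), 0.54 after cyclic loess (limma adjusted p = 0.0119) and 0.40 after median centring (limma adjusted p = 0.032), where the median gene differed by 0.46 as deposited. SKP-derived minus nerve cells gave -0.91 (limma adjusted p = 0.00282), which ended at -0.47 after cyclic loess (limma adjusted p = 0.121) and at -0.43 after median centring (limma adjusted p = 0.0829). Its own differences are therefore to be read against the scale of the nerve arrays, whose medians over all features lay at 6.82 to 6.87. The medians lay at 6.33 to 6.44 in arrays of SKP-derived Schwann cells and at 6.20 to 6.27 in SKP arrays.

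Postn encodes periostin, an integrin ligand of dermis and periosteum. It was at 8.54, 11.35 and 10.42 in SKP-derived Schwann cells, 10.15, 10.23 and 9.66 in nerve Schwann cells, and 12.26, 12.72 and 11.25 in SKPs. SKP-derived array 2 lay just above the lowest SKP array, while nerve arrays stayed below all SKPs. Postn fell by 1.97 in SKP-derived (SE 0.63, limma adjusted p = 0.0309) and fell by 2.06 in nerve Schwann cells (SE 0.63, limma adjusted p = 0.0163). The first call ended without SKP-derived array 1 (-1.19, limma adjusted p = 0.0666) or 3 (limma adjusted p = 0.0532), or without SKP array 1 (limma adjusted p = 0.0814) or 2 (limma adjusted p = 0.1025), and in a fit of these groups alone (limma adjusted p = 0.0637). The second ended without nerve array 3 (limma adjusted p = 0.0526) or SKP array 2 (limma adjusted p = 0.0631).

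Thbs1 encodes thrombospondin 1, which binds CD36 and CD47 and activates latent TGF-beta. It was at 6.38, 8.44 and 8.21 in SKP-derived Schwann cells, 9.59, 11.54 and 7.57 in nerve Schwann cells, and 12.10, 11.59 and 8.60 in SKPs. Nerve arrays spanned most of the range of the others, and SKP-derived arrays lay below all SKP arrays. The difference from SKPs was -3.09 in SKP-derived (SE 1.12, limma adjusted p = 0.0513) and -1.20 in nerve Schwann cells (SE 1.12, limma adjusted p = 0.37), neither called. The first passed after median centring (-3.22, limma adjusted p = 0.042), among genes above the median level (limma adjusted p = 0.0354), with the sample number as a block (limma adjusted p = 0.0298) and in a fit of these groups alone (limma adjusted p = 0.0389). It passed too without SKP array 3 (-4.17, limma adjusted p = 0.0104), nerve array 2 (limma adjusted p = 0.0351) or nerve array 3 (limma adjusted p = 0.0344). It did not pass after cyclic loess (-3.12, limma adjusted p = 0.0576) or quantile normalisation (limma adjusted p = 0.062). Nor did it pass without SKP-derived array 1, 2 or 3 (limma adjusted p = 0.164, 0.0667 and 0.0802). The same held without SKP array 1 or 2 (limma adjusted p = 0.16 and 0.143) or nerve array 1 (limma adjusted p = 0.0725).

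The order of arrays within groups was set beside that of the dermal mesenchyme genes, a comparison made after the values were seen. The mean log2 level of these 12 genes was 7.97, 9.99 and 8.93 in SKP-derived arrays 1 to 3, 8.94, 9.73 and 8.60 in nerve arrays, and 12.07, 11.98 and 10.43 in SKP arrays. Thbs1 took the same order of arrays as this mean in all 3 groups, as did 0.910% of all genes. Postn did so in both Schwann cell groups and Spp1 in nerve Schwann cells and SKPs, and 7.85% of all genes did so in 2 or more groups. Thy1, a fibroblast surface protein of this list, was at 7.29, 11.27 and 9.78 in SKP-derived arrays 1 to 3. Col1a1, a collagen chain of the same list, took the reverse order in these arrays, at 11.94, 11.01 and 11.34. The part of mesenchymal cells in the Thbs1, Postn and Spp1 levels was not tested.

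**Figure D2:**
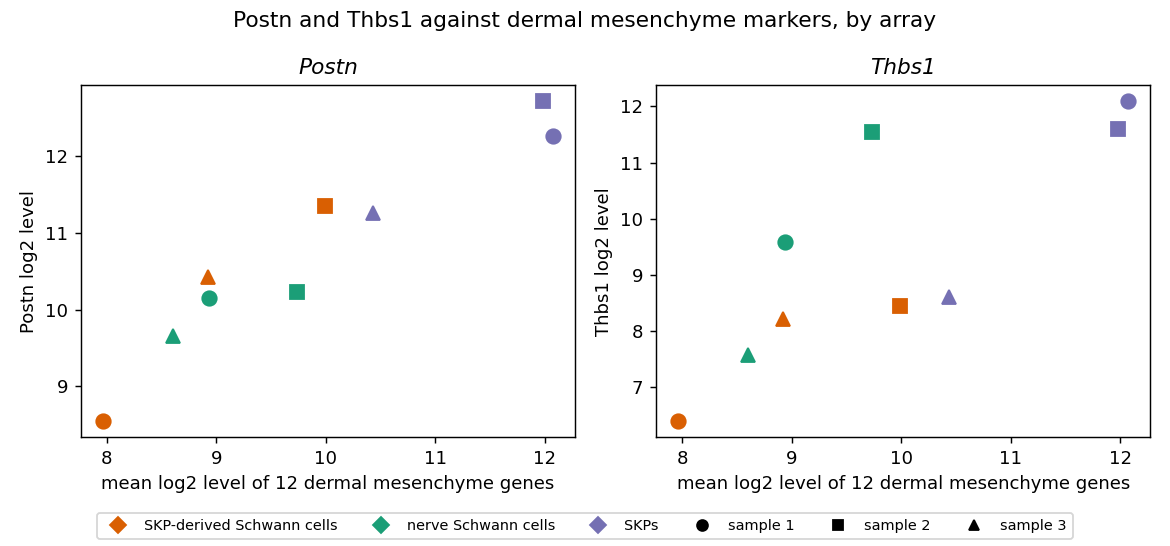
Log2 level of Postn (left) and Thbs1 (right) in each of the 9 arrays against the mean log2 level of 12 dermal mesenchyme genes, coloured by group, the symbol giving the sample number. SKP-derived array 1 is lowest on both axes in both panels, and nerve array 2 lies high for Thbs1 at 11.54.

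Sparc encodes a collagen-binding glycoprotein of remodelling tissue. It was at 13.76, 13.30 and 13.61 in SKP-derived Schwann cells, 13.63, 13.46 and 13.45 in nerve Schwann cells, and 13.46, 13.16 and 12.31 in SKPs. The groups overlapped, and SKP array 3 was lowest. The differences from SKPs were 0.58 for SKP-derived (SE 0.27, limma adjusted p = 0.108) and 0.54 for nerve Schwann cells (SE 0.27, limma adjusted p = 0.102). Without SKP array 1 they were 0.83 (limma adjusted p = 0.034) and 0.78 (limma adjusted p = 0.0265). Without SKP array 3 they were 0.25 (limma adjusted p = 0.29) and 0.20 (limma adjusted p = 0.328). After cyclic loess they were 0.29 (limma adjusted p = 0.465) and 0.37 (limma adjusted p = 0.323).

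Between the Schwann cell groups, 2 of the 9 genes (Spp1 and Ccn5) were lower in SKP-derived cells and 0 higher by limma, against 42.3% and 1.33% of all genes, or 43.7% in either direction. At an unadjusted p under 0.05, limma gave 2 lower and 1 higher, the last being Ccn4. After cyclic loess limma called 0 of 9, against 0.600% of all genes lower and 0.731% higher, with 2 lower and 1 higher at an unadjusted p under 0.05. The groups did not overlap for 3 of the 9 genes (Ccn4, Ccn5 and Spp1), against 62.3% of all genes. The median difference of the 9 genes was -0.02, beside -0.45 over all genes. Ccn1 (-0.02, SE 0.40), Ccn2 (-0.03, SE 0.30), Postn (0.09, SE 0.63) and Sparc (0.04, SE 0.27) differed by less than 1 standard error, as did Ccn3, and Thbs1 differed by -1.89 with an error of 1.12. A p-value that misses the threshold does not show that the groups are alike.

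**Figure D3:**
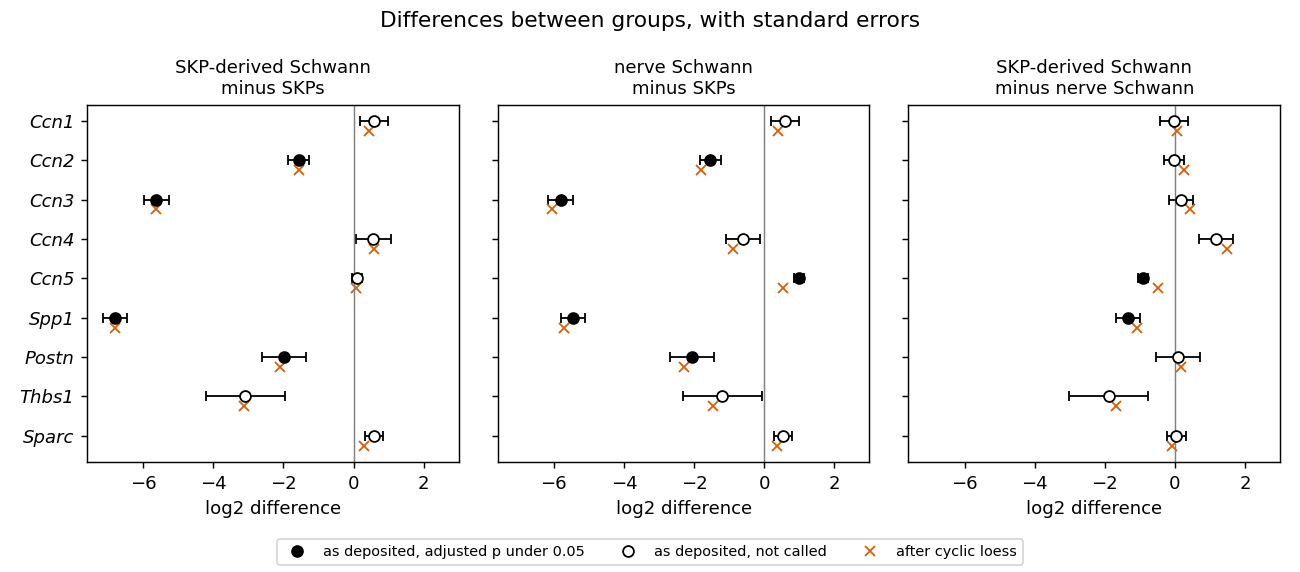
Log2 difference of each gene in the 3 comparisons (horizontal axis), with the standard error as a bar, filled where limma's adjusted p is under 0.05, and the value after cyclic loess as a cross. Spp1 (-6.79 and -5.46) and Ccn3 (-5.63 and -5.80) lie far below the others in both comparisons with SKPs, and the filled points between the Schwann cell groups are Ccn5 and Spp1.

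Genes with profiles closest to the called genes were found by the root mean square difference between both genes' 9 log2 values, each centred on its mean over the arrays. Ccn3 and Spp1 were nearest to the same pair of genes. These were Aqp1, a water channel (0.44 from Ccn3 and 0.55 from Spp1), and Mmp10, a matrix metalloproteinase (0.58 and 0.56). The next were Il13ra2, a decoy receptor of interleukin 13, for Ccn3 (0.70) and Ptgs1, a prostaglandin synthase, for Spp1 (0.65). Ccn3 and Spp1 were also each other's nearest among the 9 genes, at 0.81. For Ccn2 the nearest were Degs1, a ceramide desaturase (0.25), Arl11 (0.27) and Plaur, the urokinase receptor (0.29). For Postn they were Eng, a TGF-beta co-receptor (0.36), Flrt2 (0.37) and Sulf1, a heparan sulfate sulfatase (0.46). For Ccn5 they were Or1j21, an olfactory receptor (0.057), Rhox9 (0.066) and Rdh7 (0.069). Those of Ccn5 differed between nerve Schwann cells and SKPs by 0.94, 0.96 and 0.92 as deposited.

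Relatives of the 9 genes were described from a list of 19, of which 14 were measured. In SKP-derived Schwann cells against SKPs 2 were higher and 3 lower by limma, with a median of -0.12, and in nerve Schwann cells 5 were higher and 3 lower, with a median of 0.30. After cyclic loess these counts were 2 and 3, and 4 and 6. Of all genes, 19.3% were higher and 22.3% lower in SKP-derived, and 49.7% and 14.9% in nerve Schwann cells as deposited. After cyclic loess these shares were 18.6% and 23.9%, and 22.4% and 25.6%. Tnn, which encodes tenascin N, a relative of tenascin C, fell by 4.34 in SKP-derived (limma adjusted p = 0.0107) and fell by 3.68 in nerve Schwann cells (limma adjusted p = 0.0144). It was at 5.93 or less in the Schwann cell arrays, against 11.56 and 10.82 in SKP arrays 1 and 2 and 6.28 in SKP array 3. Tgfbi, an RGD matrix protein related to periostin, rose by 1.67 in SKP-derived and by 2.17 in nerve Schwann cells.

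Sparcl1, the closest relative of Sparc, was at 9.40, 9.26 and 7.24 in SKP-derived Schwann cells, 12.72, 11.44 and 11.32 in nerve Schwann cells, and 9.88, 9.35 and 7.41 in SKPs. Nerve arrays were all above the rest. SKP-derived minus nerve Schwann cells gave -3.19 for Sparcl1 (limma adjusted p = 0.00942, and 0.0927 after cyclic loess), and nerve Schwann cells minus SKPs gave 2.95 (limma adjusted p = 0.00629). Smoc2, another relative of Sparc, was higher in SKP-derived than nerve Schwann cells by 1.22 (limma adjusted p = 0.0431, and 0.107 after cyclic loess) and fell by 1.81 in nerve Schwann cells against SKPs. Mepe and Dmp1, relatives of Spp1 in mineralised tissue, differed by -1.34 and -0.90 in SKP-derived Schwann cells against SKPs. Mepe was at 7.10, 6.45 and 5.37 and Dmp1 at 6.50, 5.21 and 5.10 in SKP arrays 1 to 3. Between the Schwann cell groups, 1 relative was higher and 5 were lower, and 0 were called by limma after cyclic loess. In that comparison 1.33% of all genes were higher and 42.3% lower as deposited.

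Receptors and co-receptors of these proteins were measured at 20 of 25. In SKP-derived Schwann cells against SKPs 3 were higher and 7 lower, and in nerve Schwann cells 7 were higher and 5 lower (2 and 7 after cyclic loess in each). Of all genes, 19.3% were higher and 22.3% lower in SKP-derived, and 49.7% and 14.9% in nerve Schwann cells as deposited. After cyclic loess these shares were 18.6% and 23.9%, and 22.4% and 25.6%. Itgb8, whose integrin with the alpha v chain activates latent TGF-beta, rose by 4.55 in SKP-derived (limma adjusted p = 2.69e-06) and by 4.60 in nerve Schwann cells (limma adjusted p = 2.18e-06). Notch1, the receptor bound by Ccn3, rose by 3.72 and 4.53. In the opposite direction, Sdc1, a heparan sulfate proteoglycan, changed by -3.92 and -3.90, Itga5, a fibronectin receptor chain, fell by 2.97 in SKP-derived Schwann cells, and Itgb5, a partner of the alpha v chain, fell by 3.00 in nerve Schwann cells. Known receptors of Spp1 and Thbs1 were named for that role after their values were seen. The Spp1 receptor Cd44 differed by -0.59 in SKP-derived (limma adjusted p = 0.108) and fell by 0.74 in nerve Schwann cells (limma adjusted p = 0.0354). The Thbs1 receptor Cd36 fell by 2.83 in SKP-derived (limma adjusted p = 0.0466) and differed by -2.13 in nerve Schwann cells (limma adjusted p = 0.0876). Another Thbs1 receptor, Cd47, differed by 0.20 (limma adjusted p = 0.316) and 0.21 (limma adjusted p = 0.248). Between the Schwann cell groups, 4 receptors were lower in SKP-derived cells as deposited, led by Itga4 (-1.28) and Sdc4 (-1.07), and 0 of 20 were called by limma after cyclic loess. In that comparison 42.3% of all genes were lower as deposited.

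The YAP and TAZ list had 15 of 20 genes measured and moved both ways. In SKP-derived Schwann cells against SKPs 6 were higher and 5 lower, and in nerve Schwann cells 8 were higher and 1 lower (5 and 5 after cyclic loess in each). Of all genes, 19.3% were higher and 22.3% lower in SKP-derived, and 49.7% and 14.9% in nerve Schwann cells as deposited. After cyclic loess these shares were 18.6% and 23.9%, and 22.4% and 25.6%. Tead1, a DNA-binding partner of YAP, rose by 2.83 in SKP-derived (11.17 against 8.34 in SKPs, limma adjusted p = 1.06e-05) and by 3.31 in nerve Schwann cells (limma adjusted p = 5.12e-06). Tead2 rose by 1.84 and 2.33. Fjx1, a secreted kinase-like protein, changed by -2.16 and -1.24, and Nt5e, an ectonucleotidase, fell by 1.81 in SKP-derived Schwann cells. Nt5e was at 8.20, 7.96 and 5.39 in SKP arrays 1 to 3, the last within the SKP-derived range of 5.12 to 5.84. Ajuba, a LIM protein of the Hippo pathway, rose by 1.27 in nerve Schwann cells. In SKP-derived against nerve Schwann cells 1 was higher and 5 were lower, and 1 was higher and 0 lower after cyclic loess. In that comparison 1.33% of all genes were higher and 42.3% lower as deposited, and 0.731% and 0.600% after cyclic loess. Axl, a receptor kinase, differed by -1.55 between SKP-derived and nerve Schwann cells (limma adjusted p = 0.00614, and 0.0765 after cyclic loess), and Ptpn14, an inhibitor of YAP, was higher by 0.78 (limma adjusted p = 0.0116, and 0.0343 after cyclic loess).

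Of the TGF-beta list 12 of 15 genes were measured. In SKP-derived Schwann cells 2 were higher and 7 lower than in SKPs, with a median of -1.87, and in nerve Schwann cells 3 were higher and 7 lower, with a median of -1.16 (2 and 7 after cyclic loess in each). Of all genes, 19.3% were higher and 22.3% lower in SKP-derived, and 49.7% and 14.9% in nerve Schwann cells as deposited. After cyclic loess these shares were 18.6% and 23.9%, and 22.4% and 25.6%. Ltbp2, a latent TGF-beta binding protein relative, changed by -4.15 and -3.96, with SKP array 3 at 8.87 against 12.04 and 11.89 in SKP arrays 1 and 2. Inhba, an activin subunit, changed by -3.35 and -2.43, and Smad7, which inhibits TGF-beta signalling, by -3.10 and -2.55. Cdkn2b, a cell cycle inhibitor, fell by 2.34 in SKP-derived Schwann cells. Tgfbi, which is also in this list, rose by 1.67 in SKP-derived and by 2.17 in nerve Schwann cells. Between the Schwann cell groups 5 were lower in SKP-derived cells as deposited, among them the ligand Tgfb1 (-0.90, limma adjusted p = 0.0188), and 0 were called by limma after cyclic loess. In that comparison 42.3% of all genes were lower as deposited.

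**Figure D4:**
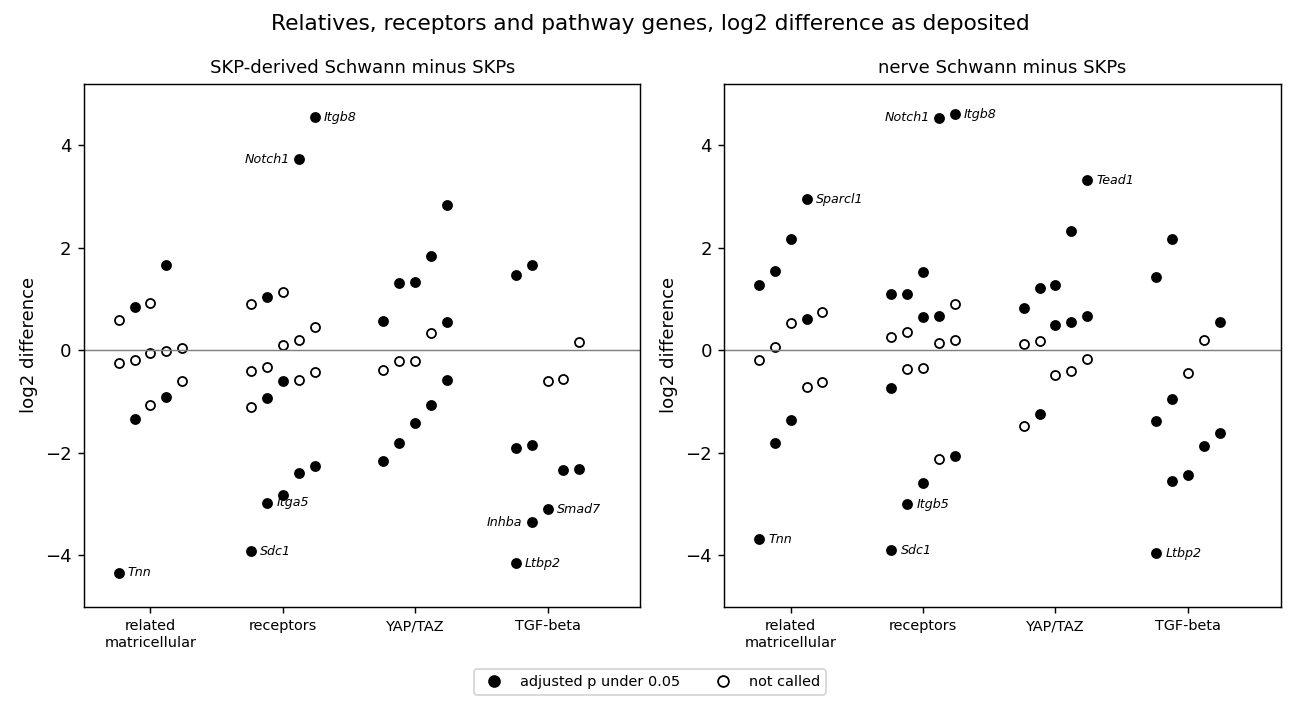
Log2 difference (vertical axis, as deposited) of each measured gene in the 4 lists, in SKP-derived Schwann cells minus SKPs (left) and nerve Schwann cells minus SKPs (right), filled where limma's adjusted p is under 0.05. Itgb8 (4.55 and 4.60) and Notch1 (3.72 and 4.53) are at the top, and Tnn (-4.34 and -3.68), Sdc1 and Ltbp2 at the bottom.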

How the data were processed

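The authors deposited log2 values for 29214 features of 9 Affymetrix Rat Gene 1.0 ST arrays. Per the submitters' processing notes, RMA was run in Affymetrix Expression Console. The build, the versions and whether all arrays were scaled together are not given in the sources used. Depth has no meaning for arrays, and their number limits the precision. Detection calls were not used here.

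Features were named from the platform annotation (15310 with 1 gene symbol, 323 with several, 13581 with none). The feature with the highest mean stood for a gene, which gave 14506 genes. Groups were compared with limma 3.58.1 in R 4.3.3 (lmFit on all 9 arrays, eBayes, Benjamini-Hochberg over all genes, called at an adjusted p under 0.05). The procedure was tested on simulated data. Promoter windows come from RefSeq (GRCr8).

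The members and lists were chosen with earlier results of these data known. Genes named from the 4 lists are, per comparison, up to 4 called genes with the largest absolute difference, unless stated. Alternatives were other scalings, filters, feature rules, variance models, thresholds, a sample number block and leaving out each array. P-values measure the spread between samples that the labels call independent.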

Additional observations from a re-analysis of the deposited data

How the results depend on the processing

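The counts of called genes against SKPs stayed within 1.5 times of 4 for SKP-derived Schwann cells (3 to 5) and of 5 for nerve Schwann cells (4 to 6) under all alternatives run. Between the Schwann cell groups the count of 2 became 0 after median centring, 0 after cyclic loess and 0 after quantile normalisation by limma (2 lower and 1 higher at an unadjusted p under 0.05 in each). Among genes above the median level, which kept 8 of the 9 genes and left Ccn5 untested, it was 1. It was also 1 at an adjusted p under 0.01, 1 with a 2-fold minimum, and 1 to 3 with single arrays left out. The share of all genes called in that comparison was 43.7% as deposited, and 4.94%, 1.33%, 1.65%, 8.27%, 19.4% and 5.56% under the same settings in that order. It was 25.9% to 50.1% with single arrays left out. Shares for SKP-derived and nerve Schwann cells against SKPs were 41.6% and 64.6%, and 20.5% and 28.8% with a 2-fold minimum (26.6% for SKP-derived at an adjusted p under 0.01). Why the counts moved was not tested beyond the settings' own construction.

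With the sample number as a block, 5, 5 and 3 genes were called for SKP-derived against SKPs, nerve against SKPs, and SKP-derived against nerve cells. The numbers are not known to pair the samples. Deviations of same-numbered arrays of different groups correlated at -0.12 to 0.29, and those of differently numbered arrays at -0.265 to 0.18. Same-numbered SKP-derived and nerve arrays correlated at 0.07, 0.29 and 0.15 for samples 1 to 3. Whether the samples are paired was not tested.

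Of 537 single-gene values under the alternatives, 480 kept direction and side of the threshold, 13 became called, 20 lost the call and 24 changed sign, none of the last being called before or after. After median centring the sign changed for Ccn5 in SKP-derived Schwann cells minus SKPs (-0.039) and for Ccn1 (-0.0039) and Sparc (-0.064) in nerve Schwann cells minus SKPs. In SKP-derived minus nerve Schwann cells, Ccn1 was at 0.45, 0.049 and 0.016 and Ccn2 at 0.45, 0.26 and 0.29 after median centring, cyclic loess and quantile normalisation, and Sparc at -0.087 after cyclic loess. With single arrays left out, differences from SKPs in SKP-derived Schwann cells ranged from -0.0057 to 0.22 for Ccn5 and -0.014 to 0.95 for Ccn4. For SKP-derived minus nerve Schwann cells the ranges were -0.34 to 0.24 for Ccn1, -0.24 to 0.18 for Ccn2, -0.23 to 0.54 for Ccn3, -0.53 to 0.87 for Postn and -0.056 to 0.17 for Sparc.

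Groups of 3 arrays, SKPs apart in culture form and origin of the arrays, and 1 feature per gene limit these results.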

Other observations

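Most of the matricellular genes varied more within groups than the median gene, and Ccn5 did so in no group. The median SD over the 9 genes was 0.59 in SKP-derived Schwann cells, 0.31 in nerve Schwann cells and 0.60 in SKPs, beside 0.23, 0.11 and 0.23 over all genes. Thbs1 had an SD of 1.99 in nerve Schwann cells, at or above that of 99.98% of genes, and Postn had an SD of 1.43 in SKP-derived Schwann cells, at or above 99.5%. The SD of Ccn5 was at or above that of 49.5%, 27.85% and 15.03% of genes in SKP-derived Schwann cells, nerve Schwann cells and SKPs. Sparc stood at 50.3% and 45.01% in SKP-derived and nerve Schwann cells. In nerve Schwann cells, Ccn5 and Sparc had SDs of 0.07 and 0.10. The comparison with all genes did not take the level of a gene into account.

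Ccn1, Ccn4 and Spp1 were lowest in sample 3 of every group, which holds for 3 of the 9 genes and 5.61% of all genes. The sample numbers are not known to mark a shared culture or day.

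Ibsp, a mineralised tissue relative of Spp1, spread within groups, at 5.47, 8.14 and 7.14 in SKP-derived Schwann cells, 7.65, 6.54 and 6.02 in nerve Schwann cells, and 6.72, 5.74 and 5.49 in SKPs. Runx2, a regulator of bone cells, was at 9.01, 9.77 and 8.24 in SKP-derived Schwann cells, 9.75, 10.05 and 10.22 in nerve Schwann cells, and 8.17, 8.61 and 8.22 in SKPs. The osteogenic list, of which 8 of 8 genes were measured, had 1 gene higher and 1 lower in SKP-derived Schwann cells than in SKPs, and 4 higher and 0 lower in nerve Schwann cells as deposited by limma (1 higher and 1 lower after cyclic loess). Of all genes, 19.3% were higher and 22.3% lower in SKP-derived, and 49.7% and 14.9% in nerve Schwann cells as deposited.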
